A study of Mus musculus with 12 samples.

Results

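Transcripts of 10 cytochrome P450 genes of families 2 and 3 (Cyp3a11, Cyp3a13, Cyp3a25, Cyp2c65, Cyp2c66, Cyp2c29, Cyp2c55, Cyp2b10, Cyp2d26 and Cyp2s1) were followed from crypt to villus and from the proximal to the distal end of the mouse small intestine. The members were chosen by symbol, and all 10 were among the 20090 genes of the authors' deposited table. That table pooled 27881 cells of the 8 diet samples, sorted epithelial cells (EpCAM positive, CD45 negative) from adult mice of the strain Lgr5DTR-GFP. In this reporter strain a diphtheria toxin receptor fused to GFP is made from the Lgr5 locus of stem cells, so all cells described here carried it. The labels name no diet, and no toxin treatment is stated. Another 2 samples of total epithelium and 2 of progenitors are outside that table and were not analysed here. The intestine had been divided into 30 pieces of equal length whose cells were tagged before pooling, but the tags were not used here, and position was estimated from other genes.

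Cytochrome P450 enzymes are haem proteins, most of them in the endoplasmic reticulum, that insert an oxygen atom into a substrate with electrons passed on from NADPH by the reductase Por, helped for some substrates by cytochrome b5. Families 2 and 3 hold most of the enzymes that oxidise drugs and other foreign compounds, and several of the Cyp2c enzymes also oxidise arachidonic and linoleic acid. In the gut wall they meet swallowed compounds before the liver does. The receptors PXR (gene Nr1i2) and CAR (gene Nr1i3) are known inducers of Cyp3a11 and Cyp2b10, respectively.

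Cells were grouped into clusters with every P450 gene left out of the genes that define them, and clusters were named from markers of other genes. The 3 classes used here were 7584 progenitor-like cells of the crypt, 3457 immature enterocyte-like cells and 7708 mature enterocyte-like cells. The names were checked against marker sums. The 8 stem cell markers summed to 4750 ppm in progenitor-like cells, 245 ppm in immature and 737 ppm in mature enterocyte-like cells, and the 18 mature enterocyte markers to 1422, 23991 and 59418 ppm. The 11 immature enterocyte markers summed to 2509, 6993 and 4909 ppm, so they set immature cells apart from mature cells less sharply. Stem cell markers were also higher in mature than in immature cells. A level in ppm is a gene's share of the summed values in a group of cells. Cell barcodes fell into 8 sets that could not be matched to the 8 samples, so the table was 1 pooled sample with no test and no p-value, and the sets show only the spread. Whether the sets are separate animals is not stated, so this spread may be technical. The submitters' design text mentions 2 small intestines, and how these relate to the sets is not known. Levels are compared between groups of cells for 1 gene at a time, never between genes.

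A difference is a log2 ratio of levels after adding 1 ppm to each, which understates the differences of low genes. A gene counted as higher in a group where its mean level over both groups was at least 10 ppm, its difference was at least 1 in size, and each of the 8 barcode sets had that direction. Genes below 10 ppm were not tested by this rule. The deposited values were whole numbers that did not behave as raw molecule counts, so their depth is unknown and no counting interval is given. Cell totals ran from 2764 to 9739 with a median of 5503, and a barcode set held 2286 to 5320 cells. Between barcode sets, 78 cell barcodes were shared. Sets 4 and 7 stood apart in their makeup, set 4 with only 122 progenitor-like cells and set 7 with 322 of the 347 tuft-like cells, and no count of members below moved by more than 1.5 times when both were left out.

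Nearly all of these genes were low in the crypt and high on the villus. From progenitor-like to mature enterocyte-like cells, 8 of the 9 members tested were higher in mature cells, by 2.64 to 5.53 on the log2 scale, and none was higher in progenitors. The 9 members had a median difference of 4.92. Of all 9306 genes tested, 15.5% were higher in mature cells and 38.8% in progenitors, with a median difference of -0.59. The ninth tested member, Cyp2s1, differed by -0.60, and Cyp2c29 was below the level minimum. The 8 members kept this call in every alternative tried. In all 8 the barcode sets of mature cells lay above all sets of progenitors. Markers of secretory cells moved with this comparison, the 8 goblet cell markers from 951 to 5920 ppm (sets 532 to 3614 and 2075 to 11165 ppm) and the 8 Paneth cell markers from 1930 to 5678 ppm (sets 876 to 2995 and 2963 to 10169 ppm). None of these markers was at 0, and their part in the differences was not tested. Median detected genes were 2924 in progenitors and 1705 in mature cells, and cells matched on detected genes gave the same 8 calls.

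Cyp3a11, the main mouse counterpart of human CYP3A4, which oxidises a wide range of drugs and steroids, had a level of 3.48 ppm in progenitor-like cells, 16.3 ppm in immature and 197 ppm in mature enterocyte-like cells. Over the 8 barcode sets the lowest, median and highest levels were 1.29, 5.33 and 8.40 ppm in progenitors, 5.37, 11.6 and 28 ppm in immature cells, and 119, 182 and 292 ppm in mature cells. Every set of mature cells was above every immature set, whereas immature and progenitor sets overlapped. The difference from progenitor to mature was 5.47 (SD over 8 sets 0.39).

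Cyp3a13, a Cyp3a gene that lies apart from the others of its subfamily, was at 11.2 ppm in progenitors, 189.7 ppm in immature and 546 ppm in mature cells. Its sets ran from 6.87 to 49.0 ppm (median 12.7), from 116 to 236 ppm (median 187) and from 324 to 721 ppm (median 533), with no overlap between the stages. Cyp3a25 followed at 5.09, 68.0 and 183 ppm. The Cyp3a25 sets spanned 2.97 to 18.2, 37.0 to 109 and 142 to 229 ppm, again without overlap.

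Cyp2b10, the classical target gene of CAR, was at 1.52, 13.7 and 116 ppm in the 3 stages. Its sets had a lowest, median and highest level of 0.597, 2.13 and 2.80 ppm, then 8.74, 11.7 and 18.3 ppm, then 80.4, 108 and 167 ppm. Each stage thus lay above the one before it in all sets. The progenitor levels of several enterocyte members, among them Cyp3a11 and Cyp2b10, are near a floor. In goblet-like cells, a secretory type, Cyp3a11 was at 1.69 ppm, Cyp3a13 at 10.5 ppm and Cyp2b10 at 0.843 ppm. RNA freed from other cells was not measured, and its part in these low levels was not tested.

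**Figure D1:**
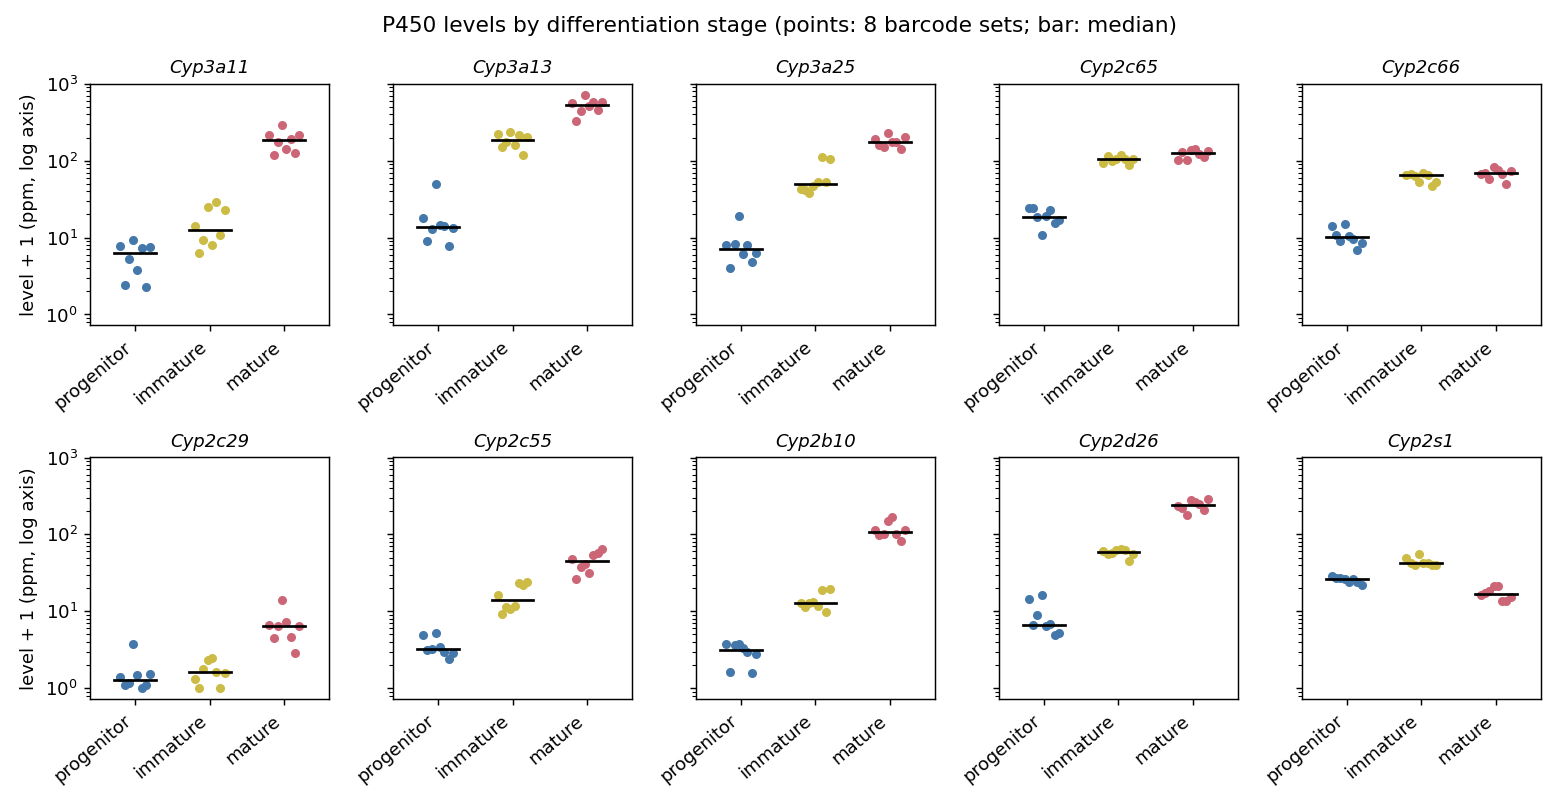
Level of each of the 10 members plus 1 ppm (log axis) in progenitor-like, immature enterocyte-like and mature enterocyte-like cells. Each point is 1 of 8 barcode sets and the bar is their median. Cyp3a11 climbs mostly between immature and mature cells, and Cyp2b10 climbs in both steps. Cyp2c65 and Cyp2c66 overlap between immature and mature cells (all cells, not matched on detected genes), and Cyp2s1 is highest in immature cells.

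The members reached their villus level at different stages. In the early step, from progenitor-like to immature enterocyte-like cells, 5 of 6 tested members were higher in immature cells (11.1% of all 9518 genes tested), and none was lower (18.9% of genes). The differences were 3.97 for Cyp3a13, 3.50 for Cyp3a25, 3.10 for Cyp2d26, 2.68 for Cyp2c66 and 2.42 for Cyp2c65. The sixth tested member, Cyp2s1, differed by 0.79. Cyp3a11 (1.95), Cyp2b10 (2.54) and Cyp2c55 (2.48) had a mean level below 10 ppm here and were not tested. Cyp3a11 lay so near this minimum that it passed when set 1, 2, 3, 5 or 7 was left out (1.82 to 2.07). Over the 6 tested members the median difference was 2.89, beside -0.19 for all genes tested.

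In the late step, from immature to mature cells, 6 of 9 tested members were higher in mature cells (7.78% of all 8357 genes tested). They were Cyp3a11 with 3.52, Cyp2b10 with 2.99, Cyp2d26 with 2.05, Cyp3a13 with 1.52, Cyp2c55 with 1.45 and Cyp3a25 with 1.41. These 6 calls held in every alternative. The median over the 9 members was 1.45, beside -0.33 for all genes tested. Median detected genes per cell were 2687 in immature and 1705 in mature cells.

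Cyp2c65 and Cyp2c66, adjacent genes whose enzymes act on fatty acids, had most of their rise in the early step. Cyp2c65 was at 18.4 ppm in progenitors, 103 ppm in immature and 119 ppm in mature cells. Its sets spanned 86.9 to 118 ppm (median 104) in immature and 100.2 to 142 ppm (median 125) in mature cells, and these ranges overlapped. Cyp2c66 was at 8.48, 59.8 and 67.6 ppm, with sets of 45.3 to 68.8 ppm (median 63.2) in immature and 49.2 to 80.6 ppm (median 67.1) in mature cells. The late differences of 0.22 and 0.17 did not pass the rule, and their size moved with the setting. In cells matched on detected genes they were 0.90 for Cyp2c65 and 0.95 for Cyp2c66, and with finer clusters 0.92 and 0.97, again without passing. With coarser clusters they were 0.80 and 1.05, and Cyp2c66 passed.

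Cyp2s1, a P450 known from epithelia outside the liver such as airway and gut, rose in the early step but went the opposite way in the late step. It was at 24.3 ppm in progenitors, 42.6 ppm in immature and 15.7 ppm in mature cells. The lowest, median and highest set were 20.9, 25.5 and 28.1 ppm, then 38.5, 41.8 and 54.6 ppm, then 12.6, 15.8 and 20.5 ppm. None of these ranges overlapped, so immature cells were highest and mature cells lowest in all sets. Cyp2s1 was the only member higher in immature than in mature cells by the rule, with -1.38 (17.3% of all genes tested were higher in immature cells). Among immature and mature cells matched on detected genes the difference was -0.92 and did not pass. Among progenitor-like and mature cells matched in this way it was -0.10, so mature cells were hardly lower than progenitors there. Cyp2s1 was also at 31.2 ppm in goblet-like cells, and at 83.8 ppm in an unnamed cluster of 161 cells led by the stomach genes Tff1, Gkn2 and Gkn1.

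Some members varied between barcode sets within a stage. In immature cells Cyp3a25 was at 109 ppm in set 6 and 106 ppm in set 8, and between 37.0 and 52.4 ppm in the other 6. The immature class combines a proximal cluster (cluster 10, led by Ros1, Reg1 and Otop3) and a distal one (cluster 3, led by Car1, Fabp6 and Mgat4c), and sets 6 and 8 were high in both. Cyp3a25 was there at 160.2 and 112 ppm in cluster 10 and at 91.5 and 104 ppm in cluster 3. In the other sets it ran from 33.4 to 69.9 ppm and from 31.3 to 62.2 ppm. In cluster 10, Cyp3a11 was at 66.0 and 50.4 ppm in these sets against 3.34 to 20.3 ppm in the rest, and Cyp2b10 at 52.0 and 40.8 ppm against 7.79 to 18.6 ppm. The diet of these sets is not known, and no comparison of diets was made.

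Along the length of the intestine, Cyp2c66, Cyp2b10 and Cyp2c65 had the largest proximal excess of the tested members. A regional score was formed for each cell from 8 distal genes (Amn, Cubn, Plb1, Muc3, Prss30, Tmigd1, Naaladl1 and Clec2h) minus 8 proximal genes (Gsta1, Adh6a, Ms4a10, Hsd17b6, Gda, Slc46a1, Rdh7 and Slc40a1). No P450 gene was among them. Mature cells were divided into proximal, middle and distal tertiles within each barcode set. They cut a continuous score and are not cell types, and 16.8% of mature cells lay within 0.1 SD of a boundary. Of 9 tested members 3 were higher in the proximal tertile (11.6% of all 7750 genes tested), and none was higher in the distal tertile (4.14% of genes). The median difference was -0.88 over the 9 members and -0.06 over all genes tested.

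Cyp2c66 was at 139.6 ppm in the proximal, 26.1 ppm in the middle and 15.4 ppm in the distal tertile. The lowest, median and highest set were 111, 137 and 167 ppm in the proximal and 11.2, 12 and 42.3 ppm in the distal tertile. The distal tertile thus lay below the proximal in all sets, and the highest distal value was that of set 4. The difference was -3.10 (SD over 8 sets 0.65).

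Cyp2b10 was at 225, 55.5 and 33.9 ppm, a difference of -2.69 (SD 0.68). Its sets spanned 169 to 323 ppm (median 209.9) in the proximal and 14.4 to 63.1 ppm (median 30.0) in the distal tertile, without overlap. Cyp2c65 was at 216, 57.6 and 55.4 ppm, with proximal sets of 175 to 262 ppm (median 227) and distal sets of 33.4 to 76.1 ppm (median 54.5). Its difference was -1.95 (SD 0.46), and its middle and distal levels were alike.

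The size of these 3 differences moved with how region was scored. With the distal scoring genes alone they were -2.0 for Cyp2c66, -1.40 for Cyp2b10, which no longer passed, and -1.19 for Cyp2c65. With the proximal scoring genes alone they were -3.85, -3.48 and -2.65, and 8 members passed instead of 3. Cells of the proximal tertile had more detected genes (median 2459) than cells of the distal tertile (1580). In cells matched on detected genes Cyp2b10 still passed at -1.94 and Cyp2c65 at -1.34.

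Several members had a smaller proximal excess that kept its sign in all 8 sets without reaching a difference of 1. Cyp2d26 was at 342 ppm in the proximal and 179.5 ppm in the distal tertile (-0.93), with sets of 251 to 412 ppm (median 336) and 119 to 234 ppm (median 156). Cyp3a25 was at 261 and 141 ppm (-0.88), Cyp3a11 at 245 and 145 ppm (-0.76), and Cyp2s1 at 21.3 and 13.3 ppm (-0.65). For Cyp2d26 the proximal and distal ranges did not overlap, whereas for Cyp3a11 they ran from 92.1 to 339 ppm and from 59.2 to 212 ppm. All 4 of these passed the rule when the proximal scoring genes alone were used, and also when cells were not scaled to a common total. With the distal scoring genes alone none of the 4 passed, with -0.01 for Cyp3a25, -0.22 for Cyp3a11 and -0.29 for Cyp2d26. In cells matched on detected genes Cyp3a11 passed at -1.12, whereas Cyp3a25 (-0.53), Cyp2d26 (-0.43) and Cyp2s1 (-0.17) did not. Cyp2c29, an epoxygenase gene abundant in liver, was at 11.6 ppm in the proximal and 0.970 ppm in the distal tertile and lay under the level minimum. Its proximal value was higher in all 8 sets, and 4 of the distal sets were at 0.

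Cyp3a13 and Cyp2c55 had the smallest differences between the ends. Cyp3a13 was at 547 ppm in the proximal, 598 ppm in the middle and 492 ppm in the distal tertile, and the difference of -0.15 ran from -0.43 to 0.10 over the sets. Cyp2c55, whose enzyme hydroxylates arachidonic acid, was at 55.6, 33.2 and 48.3 ppm, a difference of -0.20 that ran from -1.0 to 0.45. Its sets overlapped widely, with 22.1 to 74.0 ppm in the proximal and 21.6 to 65.4 ppm in the distal tertile. The value for Cyp2c55 turned on the score, since it passed at -1.13 with the proximal scoring genes alone, as the eighth member, and was 0.30 with the distal genes alone.

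Finer division gave several kinds of profile. Over quintiles of the regional score, from proximal to distal, Cyp2b10 was at 275, 109, 54.2, 40.5 and 29.3 ppm, lower in each quintile than in the one before. Cyp2c66 ran alike, from 179 ppm in the first quintile over 51.8 ppm in the second to 13.4 ppm in the last. Cyp2c65 was at 275 and 88.4 ppm and then between 55.6 and 56.0 ppm. Cyp2d26 had a like shape, with 394 and 220.0 ppm and then 178 to 184 ppm. Cyp2c55 was high at both ends, with 68.7, 30.8, 33.1, 34.2 and 58.0 ppm, and Cyp3a25 was at 303, 162, 118, 123 and 157 ppm. Cyp3a13 was highest inside the range, with 511, 622, 601, 537 and 466 ppm. These profiles have no test. The sets of neighbouring quintiles overlapped for each member, except between the first and the second for Cyp2c65 and Cyp2c66.

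A second list of regional genes (proximal Fabp1, Rbp2, S100g, Reg1, Cd36 and Fbp1, distal Fabp6, Slc10a2, Fgf15, Slc51a, Slc51b and Mep1a) gave like profiles for most members. Cyp2b10 was at 275, 111, 50.9, 39.6 and 18.1 ppm. Cyp2c55 was at 65.6 ppm in its first, 27.2 ppm in its middle and 66.3 ppm in its last quintile. Cyp3a11 was at 246, 207, 214, 199 and 92.9 ppm, so that its level was lowest in the most ileal quintile. With this list Cyp2d26 passed the rule at -1.31.

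**Figure D2:**
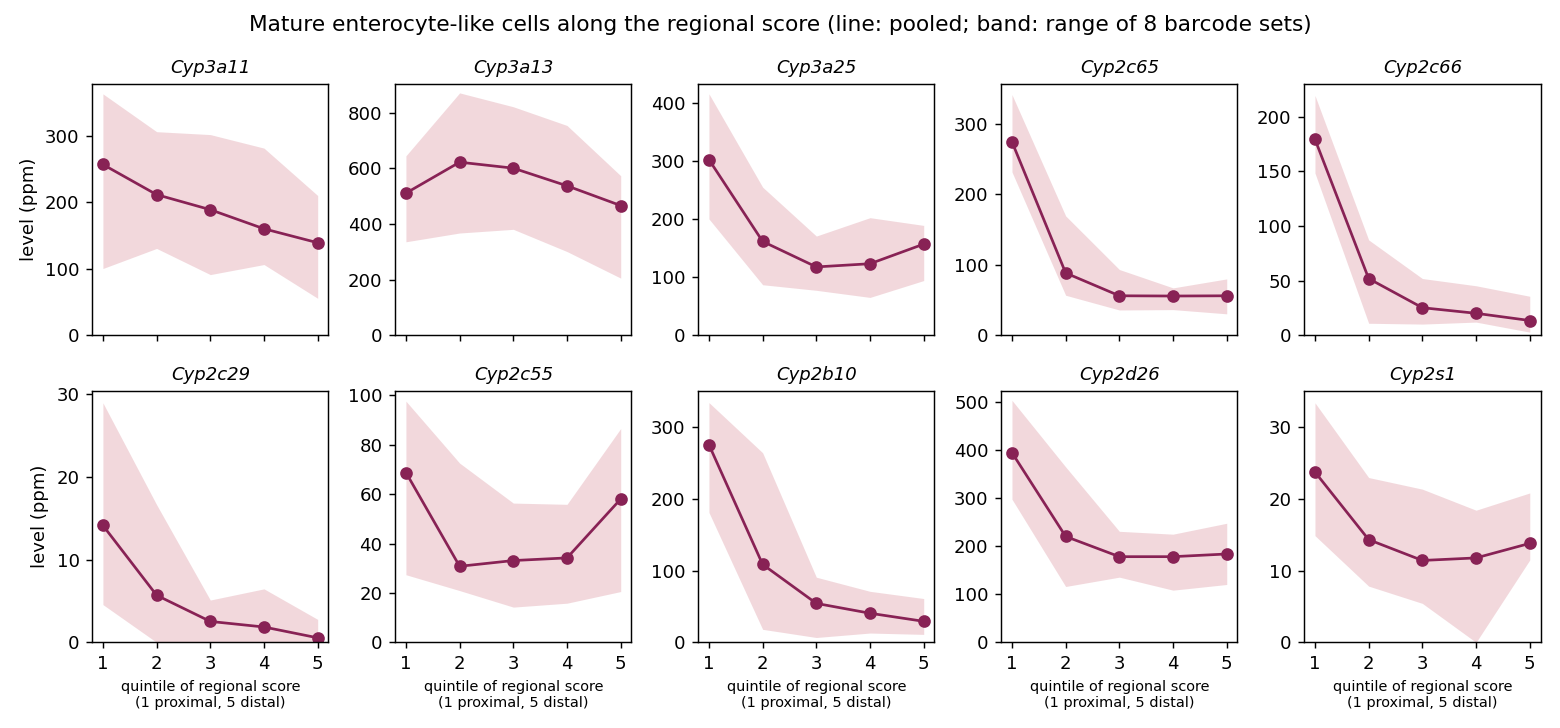
Level in ppm of each member in quintiles of the regional score of mature enterocyte-like cells, from 1 (proximal) to 5 (distal). The line is the pooled level and the band the range of 8 barcode sets. Cyp2b10 and Cyp2c66 are lower in each successive quintile, Cyp2c65 and Cyp2d26 are flat from the third quintile on, Cyp2c55 is high at both ends, and Cyp3a13 is highest in the second quintile.

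The mature clusters showed the same contrasts, but they regroup the same cells and are no separate support. The scoring gene Gsta1 is among the 10 leading genes of cluster 8. Cluster 8, led by G0s2, Leap2 and Sult6b2, made up 83.0% of the first quintile and is called proximal for this reason. Cyp2c66 was there at 173 ppm, and between 6.13 and 60.9 ppm in the other 4 mature clusters. Cyp2b10 was at 283 ppm in cluster 8, with sets from 189 to 329 ppm, and at 99.0 ppm in cluster 4, which is led by Slc7a15, Grin2a and Slc5a12. Cluster 9, whose 10 leading genes include the ileal genes Slc10a2 and Fgf15, was the lowest mature cluster for Cyp3a11 (60.3 ppm), Cyp3a13 (305 ppm), Cyp2d26 (99.98 ppm), Cyp2c65 (26.7 ppm) and Cyp2b10 (19.8 ppm). Its leading genes also include Lars2, Gm42418, Gm15564 and Cmss1, which are often high in cells of low RNA quality, and their part in these levels was not tested. Median detected genes were 2968 in cluster 8, 1522 in cluster 4 and 1223 in cluster 9.

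**Figure D3:**
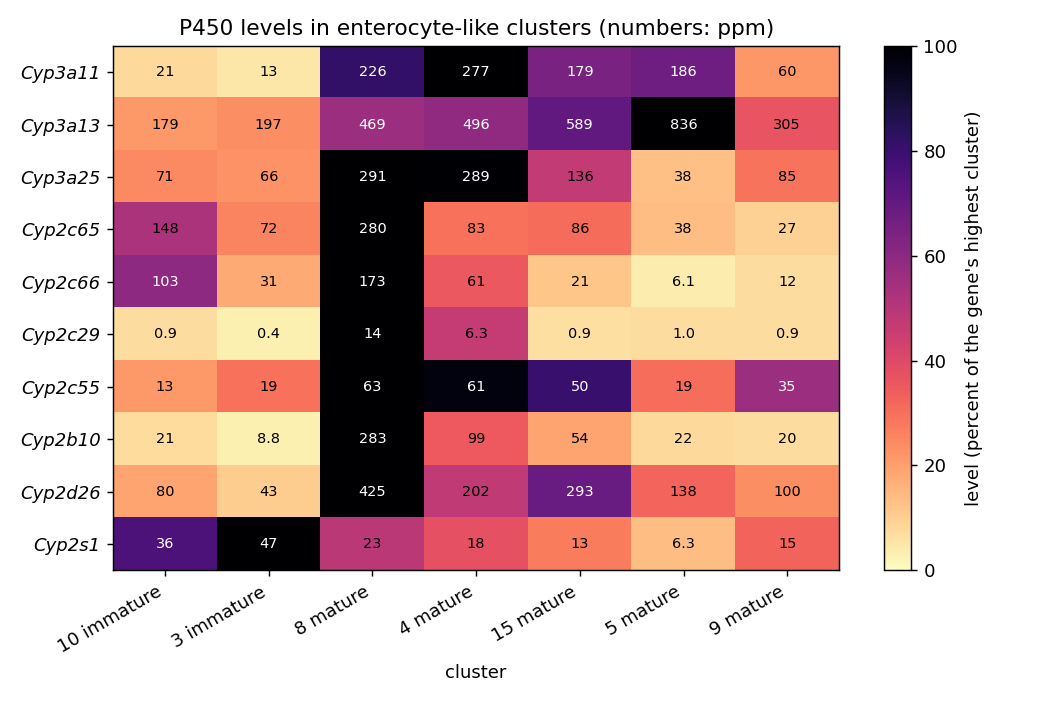
Level of each member in the 2 immature and 5 mature enterocyte-like clusters. The numbers are ppm and the colour is the percent of the gene's highest cluster. Cluster 8 is highest for Cyp2c65, Cyp2c66, Cyp2b10 and Cyp2d26, cluster 5 (villus tip genes) is highest for Cyp3a13 and low for Cyp3a25, and Cyp2s1 is highest in the immature cluster 3.

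Markers of other cell types moved with region in these mature cells. The 8 goblet cell markers summed to 3748 ppm in the proximal and 6927 ppm in the distal tertile (sets 1117 to 7225 and 2120 to 13783 ppm), and the 8 Paneth cell markers to 3312 and 6800 ppm (sets 2001 to 5202 and 3188 to 14509 ppm). None of these 16 markers was at 0. Stem cell markers summed to 397 and 897 ppm (sets 240 to 745 and 549 to 1932 ppm). Enteroendocrine markers summed to 588 and 1145 ppm (sets 310 to 1145 and 505 to 2798 ppm). The 8 tuft markers, here with the cluster 8 gene Ltc4s, went the other way, with 101 and 31.5 ppm. Their sets spanned 84.0 to 117 and 16.4 to 45.9 ppm. The 11 immature enterocyte markers summed to 7927 ppm in the proximal and 2788 ppm in the distal tertile. Their sets spanned 6909 to 9214 and 2461 to 3214 ppm, without overlap. The proximal sum was above the 6993 ppm of the immature class. The part of these marker lists in the regional differences was not tested. Several members are also abundant in liver. The hepatocyte gene Alb was at 0 in both tertiles, and the 4 hepatocyte markers summed to 7.57 and 6.47 ppm (sets 4.82 to 12.5 and 0 to 19.2 ppm).

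Along the villus the members parted. A villus score was taken from 5 genes of the tip (Nt5e, Ada, Slc28a2, Klf4 and Egfr) minus 5 of the lower villus (Ccl25, Plac8, Car4, Gsdmc4 and Nlrp6), and tertiles were formed within barcode set and regional tertile. Of 9 tested members, Cyp3a13 was higher in the upper tertile (5.59% of all 7588 genes tested). Another 5 members, Cyp2c66, Cyp2c55, Cyp3a25, Cyp2c65 and Cyp2s1, were higher in the lower tertile (9.78% of genes). The median difference was -1.38 over the 9 members and -0.22 over all genes tested.

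Cyp3a13 was at 382, 522 and 774 ppm in the lower, middle and upper tertile. Its sets had a lowest, median and highest level of 244, 359.8 and 504 ppm in the lower and 466, 743 and 1010.1 ppm in the upper tertile, with a slight overlap between the ends. Within each of the 8 sets the upper tertile was higher, and the differences ran from 0.80 to 1.28. The pooled difference of 1.02 lay at the threshold, and it no longer passed without set 6 (0.95) or without set 8 (0.99). Without scaling to a common total it was 0.73.

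Cyp3a25, of the same subfamily, went the other way, with 234, 222 and 76.5 ppm (-1.60). Its sets spanned 167 to 290.1 ppm (median 216) in the lower and 56.6 to 159 ppm (median 71.1) in the upper tertile, without overlap. Cyp2c55 was at 58.9, 58.4 and 18.3 ppm (-1.64), with lower sets of 27.6 to 93.1 ppm (median 57.3) and upper sets of 14.5 to 24.2 ppm (median 17.8), also without overlap. For both genes the middle tertile was level with the lower.

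Cyp2c66 was at 92.9 ppm in the lower and 22.3 ppm in the upper tertile (-2.01), Cyp2c65 at 157 and 58.3 ppm (-1.41), and Cyp2s1 at 20.3 and 7.92 ppm (-1.26). Cyp2b10 was at 136 and 51.8 ppm (-1.38) but had 1 set without the same direction, set 5, without which it passed at -1.66. Cyp3a11 was at 145 ppm in the lower, 230.5 ppm in the middle and 224 ppm in the upper tertile, and its difference of 0.62 had the same sign in 8 of 8 sets. Cyp2d26 was at 260.2, 278 and 185 ppm (-0.49).

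Median detected genes were 1970.5 in the lower and 1511.5 in the upper tertile, and goblet markers summed to 4695 and 7380 ppm (sets 1780 to 8311 and 2642 to 14907 ppm), Paneth markers to 4705 and 7055 ppm (sets 2601 to 8765 and 3933 to 12182 ppm). None of these markers was at 0. The 11 immature enterocyte markers summed to 6203 ppm in the lower and 3239 ppm in the upper tertile (sets 5578 to 6641 and 2615 to 4746 ppm). The villus score shares Ccl25, Plac8, Car4 and Gsdmc4 with that list, so the lower upper-tertile sum follows in part from the score. It also shares Nt5e, Ada and Slc28a2 with the mature enterocyte list. The part of the markers in the villus differences was not tested. In cells matched on detected genes only Cyp2c55 stayed higher in the lower tertile, with -0.54 for Cyp2c65, -0.93 for Cyp2c66, -0.88 for Cyp2s1 and -1.13 for Cyp3a25 no longer passing. Cyp2c55 in turn did not pass with the proximal scoring genes alone (-1.17), the second regional list (-1.54) or a stricter cell filter (-1.41). Cluster 5, led by Ly6m, Nt5e and Slc28a2, had the same split but is no separate support. It made up 63.4% of the upper tertile, and the villus score genes Nt5e, Slc28a2 and Ada are among its leading genes. Cyp3a13 was there at 836 ppm, with sets from 574 to 994 ppm, and Cyp3a25 at 37.6 ppm, with sets from 26.4 to 48.2 ppm. In cluster 4 the same genes were at 496 and 289 ppm.

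Regional differences were also seen in the immature class, and whether its tertiles differed in maturity was not tested. In immature enterocyte-like cells 5 of 9 tested members were higher in the proximal tertile (2.73% of all 8650 genes tested), and none in the distal tertile (3.27% of genes). They were Cyp2b10 with -3.29, Cyp2c66 with -2.34, Cyp2c65 with -1.50, Cyp2d26 with -1.36 and Cyp3a11 with -1.30. The median was -1.30 over the 9 members and 0.01 over all genes tested. Detected genes were alike at both ends, with medians of 2625 and 2641.

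Cyp2c66 was at 116, 42.4 and 22.1 ppm in the 3 immature tertiles. Its sets had a lowest, median and highest level of 98.3, 111 and 137 ppm in the proximal and 6.52, 24.3 and 32.0 ppm in the distal tertile, without overlap. Cyp2b10, though low at this stage, was at 30.5, 8.73 and 2.23 ppm, with proximal sets of 16.7 to 50.5 ppm (median 23.1) and distal sets of 0 to 6.80 ppm (median 1.84). Cyp3a11 was at 27.6 and 10.6 ppm, and without set 6 its difference was -0.87 and no longer passed. With the distal scoring genes alone only Cyp2c66 still passed (-1.11), Cyp2b10 differed by -0.03, and Cyp2d26 changed sign to 0.20. The score of immature cells largely separated their clusters, since 82.3% of the proximal tertile were cells of cluster 10 and 94.9% of the distal tertile cells of cluster 3.

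Cyp3a25 had no stable regional direction in immature cells. It was at 100.2 ppm in the proximal and 60.8 ppm in the distal tertile (-0.71), with sets of 59.9 to 168 ppm (median 77.7) and 8.84 to 128 ppm (median 31.0). It passed the rule in the distal direction at 1.16 when scored by the distal genes alone, and in the proximal direction at -2.42 when scored by the proximal genes alone. Cyp2s1, in contrast to its mature pattern, had values of 35.2 and 44.4 ppm, a difference of 0.33 with the same sign in 7 of 8 sets.

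In progenitor-like cells the members were low, and the regional score carried little, since 42.3% of these cells scored exactly 0. Only 4 members could be tested, and 1, Cyp2c66, was higher in the proximal tertile (0.208% of all 9594 genes tested) and none in the distal tertile (0.115% of genes). Cyp2c66 was at 14.6, 4.8 and 6.11 ppm, with sets of 11.1 to 21.2 ppm (median 14.9) and 3.38 to 16.9 ppm (median 6.74) at the ends, which overlapped. The difference of -1.13 passed only narrowly. It was lost without set 2, where Cyp2c66 fell under the level minimum at -1.16, and it was 0.21 with the distal scoring genes alone.

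The genes around the members in the genome group them as follows (GENCODE M21, GRCm38). Cyp2c55, Cyp2c65, Cyp2c66 and Cyp2c29 lie in this order on the plus strand of chromosome 19 between positions 39007019 and 39330713, with 18.3 kb, 19.95 kb and 82.3 kb between them. Cyp3a11 and Cyp3a25 lie 97.2 kb apart on the minus strand of chromosome 5, whereas Cyp3a13 lies 7933 kb from Cyp3a11. Cyp2s1 and Cyp2b10 are neighbours on chromosome 7, 80.7 kb apart on opposite strands, and Cyp2d26 is on chromosome 15. Some neighbours were alike and others differed. Cyp2c65 and Cyp2c66 shared the early step and the proximal excess. Cyp2c55, the gene next to Cyp2c65, was the member high at both ends, and Cyp2s1 had the opposite late step to Cyp2b10.

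The 3′ ends of some members are alike, which limits how far their reads can be told apart. Of the 50-base words in the last 600 bases of the annotated Cyp2c66 transcript, 35.8% also occur in transcripts of Cyp2c65. For Cyp2d26 21.1% were shared with other genes, 10.3% with Cyp2d40, for Cyp3a25 9.44% with Cyp3a59, and for Cyp2b10 6.17% with Cyp2b13. No word was shared for Cyp3a13, Cyp2c29, Cyp2c55 and Cyp2s1. How reads from shared stretches were assigned was not stated, so the Cyp2c66 values are uncertain to that extent.

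The sequences before the start sites of Cyp2c65 and Cyp2c66 are shown because these adjacent genes had like stages and regions, and that of Cyp3a11 because it holds the same motif as Cyp2c65 beside a later rise. All 10 members were matched to RefSeq promoters of build GRCm38.p6, and the 250 bases upstream of the start are printed 5′ to 3′ on the gene's strand. Capitals mark 3 motifs searched on both strands: CAAAGTCCA, known as a motif specific to the enterocyte and liver factor HNF4, and the nuclear receptor half-sites AGGTCA and AGTTCA. The windows are chr19:39060756-39061005 (plus strand), chr19:39113648-39113897 (plus strand) and chr5:145879855-145880104 (minus strand).
Cyp2c65: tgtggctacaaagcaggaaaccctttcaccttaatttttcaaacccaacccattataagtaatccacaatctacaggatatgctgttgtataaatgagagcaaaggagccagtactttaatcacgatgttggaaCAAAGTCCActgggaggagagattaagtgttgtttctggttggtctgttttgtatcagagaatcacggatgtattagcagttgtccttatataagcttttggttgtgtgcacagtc
Cyp2c66: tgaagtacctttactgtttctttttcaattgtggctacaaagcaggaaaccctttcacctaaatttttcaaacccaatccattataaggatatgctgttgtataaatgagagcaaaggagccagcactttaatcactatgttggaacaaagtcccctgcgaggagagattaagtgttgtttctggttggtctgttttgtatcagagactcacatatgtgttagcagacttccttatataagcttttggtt
Cyp3a11: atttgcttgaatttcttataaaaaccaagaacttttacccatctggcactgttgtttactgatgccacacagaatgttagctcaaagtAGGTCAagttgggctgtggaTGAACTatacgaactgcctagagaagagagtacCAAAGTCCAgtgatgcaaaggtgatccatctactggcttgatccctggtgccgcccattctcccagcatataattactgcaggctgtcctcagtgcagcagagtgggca

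Over windows of 300 bases, which add 50 bases after the start, CAAAGTCCA occurred in 0.475% of 32851 RefSeq promoters and in those of Cyp2c65 and Cyp3a11 among the members. It began 116 bases before the start of Cyp2c65 and 109 bases before that of Cyp3a11. The Cyp2c65 and Cyp2c66 windows were identical at 94.5% of 271 aligned bases. At the place of the Cyp2c65 motif the aligned Cyp2c66 bases differed by the substitution A9C, counted from 1 at the 5′ end of the motif. AGGTCA was found in 16.3% and AGTTCA in 14.0% of all promoters. Among the members AGGTCA was in those of Cyp3a11, Cyp3a25 and Cyp2c29, and AGTTCA in that of Cyp3a11. The GATA motif AGATAA was found in 11.2% of all promoters and in those of Cyp2c29 and Cyp2c55. These matches describe the letters only.

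Few other P450 genes of the same families reached the level minimum. Of 24 further Cyp2 and Cyp3 rows, 4 did so in mature cells. Of these 4, Cyp2c68 (94.1 to 28 ppm, -1.71) and Cyp2j6 (139 to 59.0 ppm, -1.22) were higher in the proximal tertile (11.6% of all genes tested) and none in the distal tertile (4.14%). From progenitors to mature cells 3 of 4 were higher in mature cells, beside 15.5% of all genes tested. Cyp2d22 was at 0.875 ppm in progenitors and 25.1 ppm in mature cells. Cyp2e1 ran the other way, with 10.1 ppm in progenitors and 0.703 ppm in mature cells, below the level minimum.

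The receptors that control such genes did not share 1 pattern. Of 10 receptor and partner genes, Nr1i3, which encodes CAR, was higher in the proximal tertile (61.0 to 20.8 ppm, -1.51), and Nr1h4, which encodes the bile acid receptor FXR, in the distal tertile (82.1 to 242 ppm, 1.55). This is 1 of 10 in each direction, beside 11.6% and 4.14% of all genes tested. Another 8 did not pass, among them Nr1i2, which encodes PXR, with 114 and 120 ppm (0.07). From progenitors to mature cells 3 of 10 were higher in mature cells, with 2.44 for Nr1i3, 1.20 for Nr1h4 and 1.18 for Nr1i2, and none was lower, beside 15.5% and 38.8% of all genes tested. Hnf4a was at 211 ppm in the proximal and 412 ppm in the distal tertile (0.96, not passing).

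Of 8 genes for electron donors and haem supply, 7 were tested and 4 were higher in mature cells than in progenitors (15.5% of all genes tested). Por, the reductase that serves all members, was at 35.8 ppm in progenitors, 94.7 ppm in immature and 208 ppm in mature cells (2.50 from first to last). Along the intestine Por differed by -0.42, whereas Cyb5a (489.6 to 189 ppm, -1.37) and Cyb5r3 (377 to 139.6 ppm, -1.43) were higher in the proximal tertile, 2 of 7 beside 11.6% of all genes tested. Of P450 genes of other families, 8 were listed, 7 were in the table and 5 were tested by region. Cyp4a10, an omega-hydroxylase of fatty acids, was the only one that passed (48.4 to 0.404 ppm, -5.14).

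Likeness between members was described over the 40 sums of 8 barcode sets by 5 regional quintiles. Genes that share a regional difference tend to be alike over such sums, so the values are no separate support for the regional results. Pearson's r of log2 levels was 0.93 for Cyp2c66 with Cyp2b10, 0.91 for Cyp2c65 with Cyp2d26 and 0.86 for Cyp2c65 with Cyp2c66. It was 0.07 for Cyp3a11 with Cyp2s1, although both had a proximal excess, -0.04 for Cyp2c55 with Cyp2s1 and 0.02 for Cyp3a13 with Cyp2s1. The 5 sums of a barcode set are not independent of each other, so these are descriptions with no test. Over the same 40 sums Mgst3 (0.95) was among the genes most like Cyp2c65. The most alike to Cyp2b10 was Leap2 (0.94), to Cyp2c66 Lpgat1 (0.95), to Cyp2d26 Phyh (0.93) and to Cyp3a25 Galm (0.91). Values were lower for Cyp2s1 with C2cd3 (0.85), Cyp3a13 with Creb3l3 (0.83), Cyp3a11 with Samhd1 (0.83) and Cyp2c55 with AA467197 (0.76).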

How the data were processed

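Droplet-based single-cell RNA sequencing from transcript 3′ ends was analysed in 8 diet samples pooled in 1 table. Cell Ranger and build mm10 were used, per the submitters' processing notes; filters and the step behind the values are not stated there. The authors' deposited values were treated as a score and no count model was used, because 25.3% of cells held more values of 2 than of 1. The 10 members and all gene lists were chosen with earlier results of these data known, so nothing here is independent support for patterns shown before. The rule for named genes took all members, other Cyp2 and Cyp3 genes of at least 10 ppm in a class, 3 gene lists in full, and the 3 genes most like each member, of which the text names 1 for each; the gene most like Cyp2c65 is not reported here. Cyp1b1 had no row in the table.

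A minimum of 500 detected genes and a maximum of 25% mitochondrial transcripts removed 2 cells. Scrublet (expected rate 0.06) marked 45 doublets (0.161%), below the 0.5% taken as the least for a working caller, so doublets may remain. Cells were clustered with scanpy 1.11.5 and leidenalg 0.10.2 (2000 variable genes without P450 genes, 30 components, 15 neighbours, resolution 1) into 21 clusters.

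The naming rule was chosen after the clusters had been seen and several rules compared. The same one of 17 marker lists (stem and transit-amplifying counted as progenitor) had to lead in markers among the 100 leading genes of at least 30 ppm (at least 2) and in markers at least 2-fold higher (at least 3, at 10 ppm or more). Ltc4s was dropped from the tuft list after it was seen to lead an enterocyte cluster. The 8323 cells of unnamed clusters stayed out. Cluster 9 took its enterocyte name by this rule although 5 Paneth markers were also 2-fold higher there.

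Values were summed per group and scaled to ppm, with a pseudocount of 1 ppm. The calling procedure was run on simulated counts from sets of equal size, with no spread between sets beyond counting noise. The deposited values and sets differ from this, so that run cannot show how often the rule errs here. Alternatives covered scoring genes, pseudocount, scaling, weighting of barcode sets, cell filter, matching on detected genes, clustering and leaving out each set. Further tools were matplotlib 3.10.9, igraph 0.11.9, pandas 2.3.3, numpy 2.4.6 and scipy 1.17.1 in Python 3.11.15.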

Additional observations from a re-analysis of the deposited data

Results flagged for a closer look

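In 21 groups of 8 barcode set values (members with at least 10 ppm in a stage), 2 held a value far from the others by Dixon's test, and chance gives about 1 in 20. In progenitor-like cells Cyp3a13 was at 49.0 ppm in set 4, with the next highest set at 17.0 ppm, and set 4 held only 122 progenitor-like cells. In immature enterocyte-like cells Cyp2d26 was at 44.8 ppm in set 7, with the next lowest set at 55.1 ppm.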

How the results depend on the processing

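The members' 674 differences recomputed for called members kept their sign in 672 and stayed called in 622. Both exceptions came with the distal scoring genes alone: Cyp2d26 in immature cells by region (0.20) and Cyp2c66 in progenitors by region (0.21). By region in mature cells, 8 members were higher proximally with proximal scoring genes alone and 7 without scaling, instead of 3. In the late step none was higher in immature cells once matched on detected genes, a count of 0 instead of 1. On the villus axis the count higher in the upper tertile was 0 with distal scoring genes alone, the second list, a pseudocount of 10 ppm, no scaling, equal set weights or without cluster 9, and 2 at resolution 0.5; leaving out 1 set gave 0 to 1. The count higher in the lower tertile was 3 with proximal scoring genes alone, the second list or resolution 2, 2 with the stricter cell filter or resolution 0.5, and 1 when matched. By region in immature cells 1 was higher proximally (not 5) with distal scoring genes alone or resolution 0.5, and 1 distally with the former. In progenitors 1 was higher distally with distal scoring genes alone; proximally 2 passed with the second list, 0 with distal scoring genes alone, a pseudocount of 10 ppm, equal weights, the stricter filter, either other resolution or P450 genes left in, and 0 to 1 leaving out 1 set. Leaving out sets 4 and 7 together, or cluster 9, was chosen after seeing the data; the former moved no count by over 1.5 times. Without scaling, genes called in mature cells by region were 112 distal and 1736 proximal, against 321 and 900, and the median difference of all genes went from -0.06 to -0.44. No paired analysis was possible because no result comes from a test and barcode sets cannot be matched to samples; groups of cells were compared within each set throughout.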
